A study of Mus musculus with 32 samples.

Results

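The 10 genes described here are factors of maternal mRNA clearance, out of 55385 genes listed in each RNA library. They were chosen by name, for what their products are known to do, by a rule that uses no measured value. Earlier results of these data were known when the choice was made. They are the deadenylation adaptor Btg4, the CCR4-NOT subunits Cnot6l, Cnot7 and Cnot1, the RNA-binding protein Zfp36l2, the poly(A)-binding protein Pabpn1l, the m6A reader Ythdf2, the uridylyltransferases Tut4 and Tut7, and the decapping cofactor Dcp1a. Each of the 10 matched 1 protein-coding gene of the GENCODE M21 annotation of GRCm38, and each passed the filter on low counts in every comparison.

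The embryos were made by in vitro fertilization of B6D2F1/J oocytes with B6D2F1/J sperm from 6- to 8-week-old wild-type mice. In the A-485 experiment, embryos were held in 10 µM A-485, an inhibitor of the histone acetyltransferases CBP and p300, from 4 to 20 hours post fertilization (hpi), or in the solvent DMSO, and were collected at 3 stages, as zygotes and at the early and late 2-cell stages. In the TSA experiment, late 2-cell embryos had been held from 8 to 28 hpi in 50 nM TSA, which inhibits histone deacetylases, or in DMSO. Each of the 8 groups had 2 total RNA libraries. The labels do not say whether the 3 stages of the A-485 experiment were cultured or sequenced together. In comparisons between stages, a batch therefore cannot be told apart from stage. The paper places the early 2-cell stage at 20 hpi, so zygotes were exposed for less than the full window. A-485 was no longer in the medium when the late 2-cell embryos were collected, and the late 2-cell stage has its own DMSO group in each experiment. Whole embryos were measured, so fewer cells and less RNA per cell cannot be told apart.

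A mouse oocyte stores mRNA that the embryo degrades as its own genome is switched on. The poly(A) tail is removed first, mainly by the CCR4-NOT complex, which adaptors and RNA-binding proteins bring to their targets. Tails that have been shortened can be marked with uridines, and the message is then decapped and digested from its 5′ end or degraded by the exosome from its 3′ end. Part of this decay uses proteins made from stored mRNA and begins as the oocyte matures, and a later wave needs transcription in the embryo.

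Stretches of promoter are shown for 4 members, Btg4 and Pabpn1l, which fell from zygote to late 2-cell, and Ythdf2 and Tut7, which rose. Each is the 250 bases 5′ of an annotated start site, taken from RefSeq (GRCm38.p6) and written 5′ to 3′ on the strand of the gene, with every CpG in capitals. Btg4 is read from chr9:51115751-51116000 (plus strand), Pabpn1l from chr8:122622736-122622985 (minus strand), Ythdf2 from chr4:132212257-132212506 (minus strand) and Tut7 from chr13:59823148-59823397 (minus strand).
Btg4: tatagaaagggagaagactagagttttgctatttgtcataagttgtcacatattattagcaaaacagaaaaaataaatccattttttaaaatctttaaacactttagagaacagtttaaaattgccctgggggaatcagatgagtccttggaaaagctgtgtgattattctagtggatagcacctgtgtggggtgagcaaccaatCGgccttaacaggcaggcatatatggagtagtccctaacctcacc
Pabpn1l: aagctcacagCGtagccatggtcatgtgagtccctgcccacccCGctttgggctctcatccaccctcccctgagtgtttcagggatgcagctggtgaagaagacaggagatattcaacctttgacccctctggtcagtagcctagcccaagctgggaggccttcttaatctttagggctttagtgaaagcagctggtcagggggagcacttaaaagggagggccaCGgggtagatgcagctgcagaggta
Ythdf2: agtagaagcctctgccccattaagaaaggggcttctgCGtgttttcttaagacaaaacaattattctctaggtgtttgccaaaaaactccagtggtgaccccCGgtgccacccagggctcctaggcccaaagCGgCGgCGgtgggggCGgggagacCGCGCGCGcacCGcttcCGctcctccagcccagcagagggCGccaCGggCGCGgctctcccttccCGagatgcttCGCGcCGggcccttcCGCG
Tut7: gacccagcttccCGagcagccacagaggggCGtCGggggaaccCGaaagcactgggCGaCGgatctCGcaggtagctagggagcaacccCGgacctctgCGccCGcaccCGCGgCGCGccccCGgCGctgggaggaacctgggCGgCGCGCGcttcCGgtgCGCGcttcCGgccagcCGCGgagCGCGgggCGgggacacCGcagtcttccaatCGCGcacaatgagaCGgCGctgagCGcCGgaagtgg
The Btg4 stretch held 1 CpG and was 38.0% G or C, and the Pabpn1l stretch held 3 CpGs and was 55.6% G or C. The Ythdf2 and Tut7 stretches held 22 and 36. Over the 32851 promoters of the same table the median was 6 CpGs and 52.4% G or C, and 18.8% of promoters had as few CpGs as Btg4. The GC box GGGCGG, searched on both strands, was found in Ythdf2, Tut7, Cnot6l and Tut4 and in 32.7% of all promoters. It was not found in the Btg4, Pabpn1l and Dcp1a windows. Of the other members, Cnot6l had 37 CpGs and Dcp1a 23, and both fell from zygote to late 2-cell. Members that fell thus had few CpGs or many. Tut4, which rose, had 17, and Cnot7, Cnot1 and Zfp36l2 are named only. The change of Tut7 turned negative when scaled to mitochondrial genes.

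The RNA libraries held 13206163 to 32585987 expected counts, with a median of 22730518. The 2 libraries of a group are labelled as replicates without a statement that they came from separate cultures, so p-values measure the spread between these libraries, which may be technical. No reference RNA was added, so every fold change is relative to the other RNAs of a library. Mitochondrially encoded genes took 4.34 to 5.00% of the counts in zygotes, 10.5 to 11.4% at early 2-cell and 10.5 to 12.5% in late 2-cell DMSO libraries, but 19.5 to 20.7% after A-485 and 15.5 to 16.3% after TSA at late 2-cell. Scaling to those genes in place of edgeR's TMM factors moved the median log2 fold change of all genes at 1 FPKM or more from -0.12 to -1.39 between zygote and early 2-cell, from -0.06 to -1.36 between zygote and late 2-cell and from 0.02 to -0.62 for A-485 at late 2-cell. Calls that turn on this are named below. The stage labels were checked with marker genes: summed FPKM of 10 oocyte genes was 2348 to 2717 in zygotes and 607 to 1479 at late 2-cell, and summed FPKM of 8 genes of the 2-cell programme was 26.8 to 48.6 in zygotes and 484 to 520 in early 2-cell DMSO libraries. After A-485 the latter sum was 32.2 to 34.6 at early 2-cell. At late 2-cell it was 295 to 325 in the DMSO libraries of the A-485 experiment and 77.9 to 92.1 after A-485. In the TSA experiment it was 186 to 234 in DMSO and 546 to 570 after TSA. Late 2-cell inhibitor libraries thus did not match their controls in this sum, and its part in the members' changes was not tested. Markers of fibroblasts summed to 14.4 to 16.7 FPKM in late 2-cell A-485 libraries and 10.9 to 11.9 in TSA libraries, against 0.14 to 2.03 in the late 2-cell DMSO groups, and erythroid markers to 44.7 to 47.1 FPKM in TSA libraries against 0.81 to 1.36 in their controls. Of the 8 fibroblast markers 1 was at 1 FPKM or more in each A-485 library and 4 in each TSA library, and of the 7 erythroid markers 3 were in each TSA library. Cumulus cell markers summed to 7.85 to 14.0 FPKM in the late 2-cell DMSO libraries and 2.40 to 5.26 in the inhibitor libraries, with 1 of the 10 at 1 FPKM or more in each. Their part in the results was not tested.

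Levels are given in FPKM, fragments scaled to effective transcript length and sequencing depth, which allows genes to be compared. Fold changes come from edgeR's quasi-likelihood test on the counts, with p-values adjusted over all genes tested, and a gene is said to rise or fall only at an adjusted p under 0.05. FPKM scales to sequencing depth, whereas these fold changes use TMM factors. Scaled to total counts, the median log2 fold change of genes at 1 FPKM or more was 0.21 for A-485 at late 2-cell, beside 0.02 with TMM. For TSA it was 0.32, beside -0.03, so FPKM and fold changes can differ there in direction. The members' levels in zygotes spanned a wide range. In the DMSO zygotes the highest mean was that of Btg4 at 1799 ± 19.8 FPKM (SD, n = 2), followed by Cnot7 at 629 ± 51.0 and Cnot6l at 314 ± 17.0. Dcp1a stood at 203 ± 8.75 and Pabpn1l at 114 ± 4.45. Cnot1 (48.7 ± 4.45), Tut7 (21.5 ± 5.03), Ythdf2 (16.8 ± 2.35), Zfp36l2 (5.76 ± 0.615) and Tut4 (0.530 ± 0.382) were lower.

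**Figure D1:**
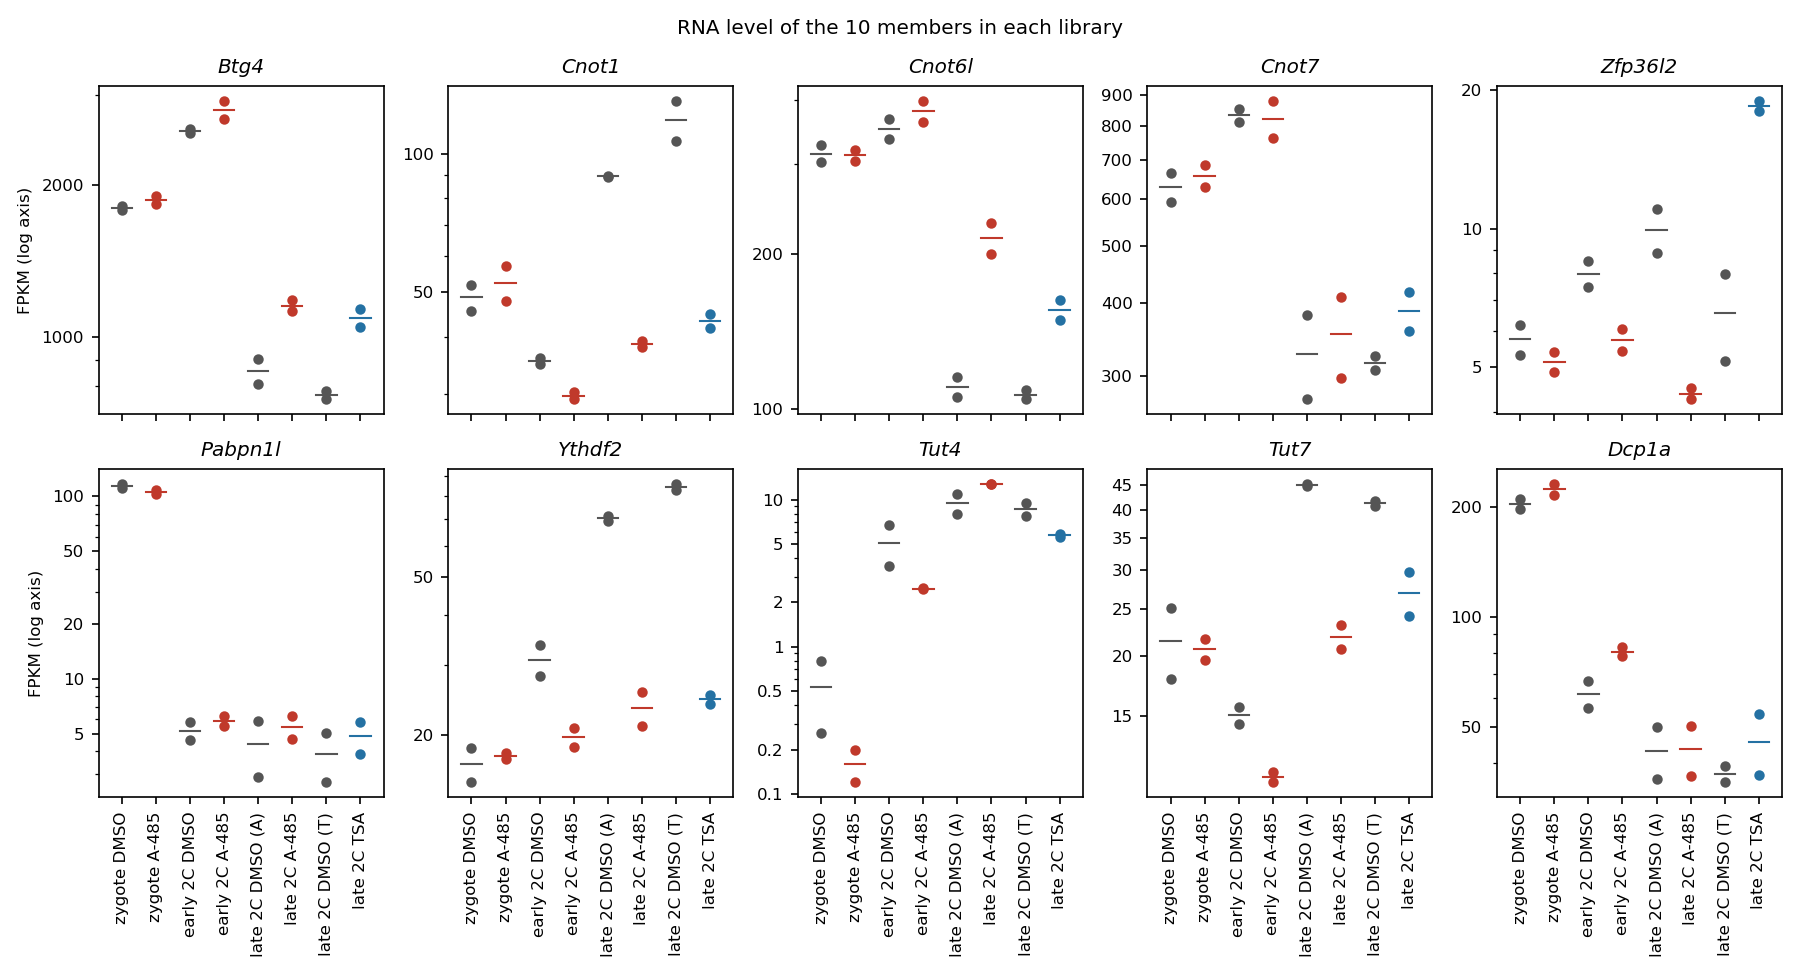
RNA level of each member in FPKM (log axis) for each of the 16 libraries (points), with the mean of each group as a bar, in grey for DMSO, red for A-485 and blue for TSA; (A) and (T) mark the DMSO controls of the A-485 and TSA experiments. Ythdf2 in late 2-cell embryos stood at 69.4 to 86.0 FPKM in the 4 DMSO libraries and at 21.1 to 25.7 in the 4 inhibitor libraries, while Pabpn1l lay above 100 only in zygotes.

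Btg4 (ENSMUSG00000032056.10, chr9:51060901-51119875), the adaptor that links CCR4-NOT to its targets in oocytes and embryos, was the most abundant member in every group. The DMSO libraries stood at 1785 and 1813 FPKM in zygotes, 2572 and 2526 in early 2-cell libraries, and 906 and 805 in late ones in the A-485 experiment. The late 2-cell controls of the TSA experiment gave 781 and 752 FPKM. Late 2-cell libraries were thus below every earlier library. Its log2 fold change was 0.59 (SE 0.06) from zygote to early 2-cell, which turned to -0.68 when scaled to mitochondrial genes and -0.74 when scaled to the protein-coding ones among them. From early to late 2-cell Btg4 fell by 1.58 on the log2 scale (SE 0.09, adjusted p = 1.41e-07, edgeR). At early 2-cell the A-485 libraries gave 2926 and 2697 FPKM, both above their controls, with a log2 fold change of 0.16 (95% interval 0.04 to 0.29, adjusted p = 0.10, edgeR). It passed with DESeq2 (0.18, adjusted p = 0.041), one joint fit of the 16 libraries (0.22, 0.026), the replicate block (0.16, 0.014) and unfiltered counts (0.16, 0.038), and without A-485 replicate 2 (0.24, 0.013). At late 2-cell A-485 libraries gave 1124 and 1181 FPKM, both above their controls, but the log2 fold change of 0.22 (95% interval 0.01 to 0.43) had an adjusted p of 0.094 in edgeR. It was 0.28 with an adjusted p of 0.034 in DESeq2, and -0.40 and -0.76 with the mitochondrial scalings, both past the threshold. TSA libraries gave 1137 and 1046 FPKM, and Btg4 rose by 0.15 on the log2 scale (SE 0.05, adjusted p = 0.029, edgeR). That call was lost without either DMSO library or TSA replicate 1 (adjusted p = 0.060 to 0.14), with DESeq2 (0.050), and with mitochondrial protein-coding genes as the scale, where the value was -0.025.

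Cnot6l (ENSMUSG00000034724.18, chr5:96070333-96164171) and Cnot7 (ENSMUSG00000031601.16, chr8:40492540-40515847) encode catalytic deadenylases of CCR4-NOT. Cnot6l stood at 327 and 302 FPKM in DMSO zygotes, 336 and 367 in early 2-cell libraries, 115 and 105 in late ones, and 104 and 109 in the other late 2-cell controls. Cnot7 stood at 593 and 665 FPKM in zygotes, 811 and 853 in early 2-cell libraries, 381 and 274 in late ones, and 308 and 325 in the other controls. Both therefore had their lowest DMSO levels at late 2-cell, with no overlap with earlier stages. Between early and late 2-cell the log2 fold change was -1.49 (SE 0.10) for Cnot6l and -1.13 (SE 0.10) for Cnot7, and both fell. Between zygote and early 2-cell both rose, by 0.30 and 0.51 on the log2 scale, but fell with either mitochondrial scaling (-0.97 and -1.03 for Cnot6l, -0.76 and -0.82 for Cnot7).

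The response of Cnot6l to A-485 was limited to late 2-cell, where the libraries gave 200 and 231 FPKM, above both controls. It rose by 0.72 on the log2 scale (SE 0.11, adjusted p = 0.00023, edgeR), or 1.65-fold, a call that was lost with the mitochondrial scalings (0.10 and -0.25). The summed oocyte markers stood at 1448 to 1479 FPKM in the same A-485 libraries and at 798 to 861 in their controls, and the part of this in the result was not tested. Its levels in A-485 embryos at early 2-cell, 398 and 363 FPKM, overlapped those of the controls, and the difference between the late and early effects was 0.68 (SE 0.13, adjusted p = 0.00040). Without DMSO replicate 2 at late 2-cell that difference was 0.34 (adjusted p = 0.065), and it was 0.06 and -0.35 with the mitochondrial scalings. TSA libraries gave 163 and 149 FPKM, above their controls, with a log2 fold change on the counts of 0.14 (95% interval 0.01 to 0.28, adjusted p = 0.072). The A-485 effect minus the TSA effect was 0.47 for Cnot6l (adjusted p = 0.019, edgeR), which was lost without any 1 of 4 of the 8 libraries (adjusted p = 0.062 to 0.091) and was -0.027 and -0.21 with the mitochondrial scalings. Cnot7 did not pass in either comparison, with 95% intervals of -0.20 to 0.33 for A-485 and -0.23 to 0.04 for TSA. With the mitochondrial scalings it fell after A-485, by 0.56 and by 0.91 on the log2 scale.

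Cnot1 (ENSMUSG00000036550.16, chr8:95719451-95807464) encodes the scaffold on which CCR4-NOT is built, and its RNA went the other way from that of Cnot6l and Cnot7. It stood at 45.6 and 51.9 FPKM in DMSO zygotes, 36.0 and 35.0 in early 2-cell libraries, 89.0 and 89.5 in late ones, and 106 and 130 in the other late 2-cell controls. Every late 2-cell DMSO library was above every earlier one. Cnot1 rose by 1.29 on the log2 scale from early to late 2-cell (SE 0.10), after a fall of 0.32 from zygote to early 2-cell. The net change from zygote to late 2-cell was 0.93 (SE 0.10) but -0.38 with either mitochondrial scaling. In late 2-cell embryos A-485 libraries gave 38.1 and 39.3 FPKM and TSA libraries 41.9 and 44.9, all below the zygote libraries and below their controls. Cnot1 fell by 1.51 on the log2 scale after A-485 (SE 0.11, adjusted p = 6.14e-07) and fell by 2.01 after TSA (SE 0.07, adjusted p = 8.79e-09, edgeR). The difference of the effects, 0.39 (95% interval 0.11 to 0.68), had an adjusted p of 0.054 and was -0.10 and -0.29 with the mitochondrial scalings. At early 2-cell Cnot1 fell by 0.27 on the log2 scale after A-485 (adjusted p = 0.047, edgeR), a call lost without any 1 of the 4 libraries (adjusted p = 0.085 to 0.16).

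Zfp36l2 (ENSMUSG00000045817.8, chr17:84183931-84187947) encodes a zinc finger protein that binds AU-rich elements and recruits CCR4-NOT, and it was the only member of the 10 that fell after A-485 and rose after TSA at late 2-cell. Its DMSO levels were 6.19 and 5.32 FPKM in zygotes, 7.48 and 8.51 in early 2-cell libraries, 11.1 and 8.85 in late ones, and 5.16 and 7.97 in the controls of the TSA experiment. These late 2-cell control groups did not overlap, although their difference of -0.58 on the log2 scale did not pass (adjusted p = 0.25, edgeR). It was -0.95 without DMSO replicate 2 of the TSA experiment and -0.77 without that of the A-485 experiment, and passed in both (adjusted p = 0.026 and 0.040). A-485 libraries gave 4.51 and 4.26 FPKM at late 2-cell and TSA libraries 18.1 and 19.0, outside the range of all 4 controls in opposite directions. Zfp36l2 fell by 1.39 on the log2 scale after A-485 (SE 0.24, adjusted p = 0.00061) and rose by 1.14 after TSA (SE 0.18, adjusted p = 0.00046, edgeR). The A-485 effect minus the TSA effect was -2.64 (SE 0.30, adjusted p = 5.03e-06). At early 2-cell A-485 libraries gave 6.06 and 5.42 FPKM, below both controls, with a log2 fold change of -0.46 (95% interval -0.82 to -0.09, adjusted p = 0.11). The difference between late and early A-485 effects, -0.85, had an adjusted p of 0.049 that rose to 0.056 to 0.14 without any 1 of 7 of the 8 libraries. From zygote to early 2-cell Zfp36l2 rose by 0.57, which was lost without DMSO zygote replicate 2 (adjusted p = 0.13) and turned to -0.70 and -0.76 with the mitochondrial scalings. Its rise of 0.85 from zygote to late 2-cell was 0.25 (adjusted p = 0.31) with the controls of the TSA experiment and -0.47 and -0.46 with the mitochondrial scalings.

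Pabpn1l (ENSMUSG00000069867.3, chr8:122619471-122622739), an oocyte poly(A)-binding protein that works with BTG4, had the most negative log2 fold change of the 10 between zygote and early 2-cell. It stood at 111 and 118 FPKM in DMSO zygotes, then 4.60 and 5.80 in early 2-cell libraries, 2.88 and 5.87 in late ones, and 5.07 and 2.71 in the other late 2-cell controls. Zygotes were far apart from every 2-cell library, and the 2-cell groups overlapped one another. Pabpn1l fell by 4.37 on the log2 scale from zygote to early 2-cell (SE 0.15, adjusted p = 1.09e-10, edgeR), which is 20.7-fold. Inhibitor libraries overlapped their controls at both 2-cell stages, with 5.51 and 6.28 FPKM after A-485 at early 2-cell, 4.65 and 6.23 at late 2-cell and 5.83 and 3.89 after TSA. At 57 to 143 counts per 2-cell library, the 95% intervals of the inhibitor effects were wide, from -0.46 to 0.86 for A-485 at early 2-cell, -0.98 to 1.21 at late 2-cell and -0.87 to 0.79 for TSA.

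Dcp1a (ENSMUSG00000021962.9, chr14:30479535-30527063), a cofactor of the decapping enzyme, fell in the same interval by 1.32 on the log2 scale (SE 0.10, adjusted p = 1.71e-07, edgeR). Its DMSO libraries gave 197 and 209 FPKM in zygotes, 56.5 and 67.0 in early 2-cell libraries, 36.2 and 50.0 in late ones and 35.5 and 39.2 in the other controls. The further fall of 0.49 to late 2-cell was lost without DMSO replicate 2 at early 2-cell (adjusted p = 0.13) or replicate 1 at late 2-cell (0.068). Dcp1a did not pass for either inhibitor, with late 2-cell levels of 36.8 and 50.6 FPKM after A-485 and 54.5 and 37.0 after TSA. It fell after A-485 with the mitochondrial scalings (-0.90 and -1.23). For TSA the log2 fold change of -0.33 had an adjusted p of 0.071 in edgeR. It passed with the replicate block (-0.35, adjusted p = 0.00095), without a filter on low counts (-0.34, 0.0021), with the mitochondrial protein-coding genes as the scale (-0.51, 0.016) and without TSA replicate 1 (-0.60, 0.00033), and was 0.025 with total counts. A-485 libraries at early 2-cell, 82.7 and 78.3 FPKM, were nevertheless both above their controls, and the 95% interval there was 0.01 to 0.47 on the log2 scale. It passed at 0.42 (adjusted p = 0.034) when the effective length of the gene in each library entered the fit, and at 0.40 (0.011) without DMSO replicate 2.

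Ythdf2 (ENSMUSG00000040025.17, chr4:132184912-132212303), whose protein binds m6A-marked mRNA and brings it to CCR4-NOT, fell after both inhibitors, and after TSA by more than any other member. It stood at 18.5 and 15.2 FPKM in DMSO zygotes, 33.6 and 28.2 in early 2-cell libraries, 71.3 and 69.4 in late ones, and 83.0 and 86.0 in the other late 2-cell controls. The 3 stages did not overlap. Ythdf2 rose by 0.79 on the log2 scale from zygote to early 2-cell (SE 0.12), turning to -0.48 and -0.54 with the mitochondrial scalings, and by 1.29 from early to late 2-cell (SE 0.13). A-485 libraries gave 20.8 and 18.6 FPKM at early 2-cell and, in the late 2-cell embryos, 21.1 and 25.7, and TSA libraries 23.9 and 25.2. Each was below its controls, and the late 2-cell inhibitor groups overlapped each other. Ythdf2 fell after A-485, with log2 fold changes of -0.90 at early (SE 0.11, adjusted p = 0.00015) and -1.95 at late 2-cell (SE 0.13, adjusted p = 2.09e-07), and after TSA (-2.53, SE 0.08, adjusted p = 5.94e-09, edgeR). The A-485 effect at late minus that at early 2-cell was -0.97 (adjusted p = 0.00016). The A-485 effect minus the TSA effect was 0.47 (adjusted p = 0.036), a call lost without any 1 of 6 of the 8 libraries (adjusted p = 0.065 to 0.13) and -0.023 and -0.21 with the mitochondrial scalings.

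Tut4 (ENSMUSG00000034610.14, chr4:108459426-108559421) and Tut7 (ENSMUSG00000035248.9, chr13:59771561-59823147) encode the enzymes that add uridines to short poly(A) tails. Tut4 was all but missing from zygotes, with 23 and 25 counts in the DMSO libraries (0.26 and 0.80 FPKM) and 12 and 23 after A-485. It stood at 6.69 and 3.51 FPKM in DMSO early 2-cell embryos, 10.9 and 8.04 at late 2-cell and 7.71 and 9.52 in the other controls. Tut4 rose by 3.90 on the log2 scale from zygote to early 2-cell (SE 0.32, adjusted p = 3.04e-07, edgeR) and by 5.35 to late 2-cell. A-485 libraries gave 2.47 and 2.49 FPKM at early 2-cell, below both controls, and 12.8 and 12.7 at late 2-cell, above both. The fall at early 2-cell was 1.49 on the log2 scale (SE 0.26, adjusted p = 0.0018), and at late 2-cell the change was 0.24 (95% interval -0.17 to 0.64), or -0.40 and -0.74 with the mitochondrial scalings. The difference of these effects was 1.81 (SE 0.30, adjusted p = 6.48e-05), or 0.76 (adjusted p = 0.15) when scaled to mitochondrial protein-coding genes. TSA libraries gave 5.56 and 5.86 FPKM, below both controls, and Tut4 fell by 1.04 on the log2 scale (SE 0.16, adjusted p = 0.00034). A-485 and TSA thus differed for Tut4 at late 2-cell, by 1.17 (SE 0.25, adjusted p = 0.0026), which the mitochondrial scalings reduced to 0.65 and 0.47 (adjusted p = 0.17 and 0.27).

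Tut7 stood at 17.9 and 25.1 FPKM in DMSO zygotes, 15.7 and 14.5 in early 2-cell libraries, 45.3 and 44.8 in late ones and 40.7 and 41.8 in the other controls. It fell from zygote to early 2-cell by 0.81 on the log2 scale (SE 0.13) and rose by 1.55 from early to late 2-cell (SE 0.16). Its net change to late 2-cell of 0.71 became -0.62 and -0.61 with the mitochondrial scalings. At late 2-cell, A-485 libraries gave 20.6 and 23.1 FPKM and TSA libraries 24.2 and 29.8, all below their controls. Tut7 fell by 0.81 after A-485 (SE 0.16, adjusted p = 0.0016) and by 0.89 after TSA (SE 0.09, adjusted p = 2.13e-05, edgeR). At early 2-cell its A-485 libraries, 11.5 and 10.98 FPKM, were below both controls, yet the log2 fold change on counts was 0.06 (95% interval -0.23 to 0.35).

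That last disagreement follows the transcript length assigned to the gene. RSEM, the tool that made the counts, reports an effective length for each gene, an average over its isoforms weighted by their estimated abundance, and FPKM is divided by it. For Tut7 it was 3657 and 3172 bases in DMSO zygotes and 3321 and 3531 in A-485 zygotes. In 2-cell DMSO libraries it was shorter, at 2582 and 2572 bases at early 2-cell, 2773 and 2287 at late 2-cell and 2391 and 2424 in the other controls. After A-485 it was 3526 and 3591 bases at early 2-cell and, in the late 2-cell embryos, 3630 and 3214, above every 2-cell DMSO library and within the range of zygotes. TSA libraries, at 2752 and 2372 bases, overlapped the controls. GENCODE M21 lists 10 transcripts of Tut7 of 435 to 5869 bases, and which of them changed was not analysed here. The lengths are given as a description, with no test.

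With effective lengths as an offset in the fit, an alternative chosen after these lengths were seen, Tut7 changed by -0.39 after A-485 at early 2-cell (adjusted p = 0.19) and fell by 1.24 at late 2-cell. Its fall from zygote to early 2-cell became -0.42 and no longer passed (adjusted p = 0.098). Effective lengths of Tut4 differed within groups, at 1642 and 3366 bases in the DMSO early 2-cell libraries, and its A-485 fall at early 2-cell no longer passed (adjusted p = 0.16). Its rise from early to late 2-cell, 1.49 on counts, became 0.89 and did not pass either (adjusted p = 0.063). The falls of Ythdf2 and Cnot1 at late 2-cell were -1.79 and -1.41 for A-485 and -2.15 and -1.82 for TSA in that fit, and all 4 passed. Cnot1 at early 2-cell did not (adjusted p = 0.22).

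**Figure D2:**
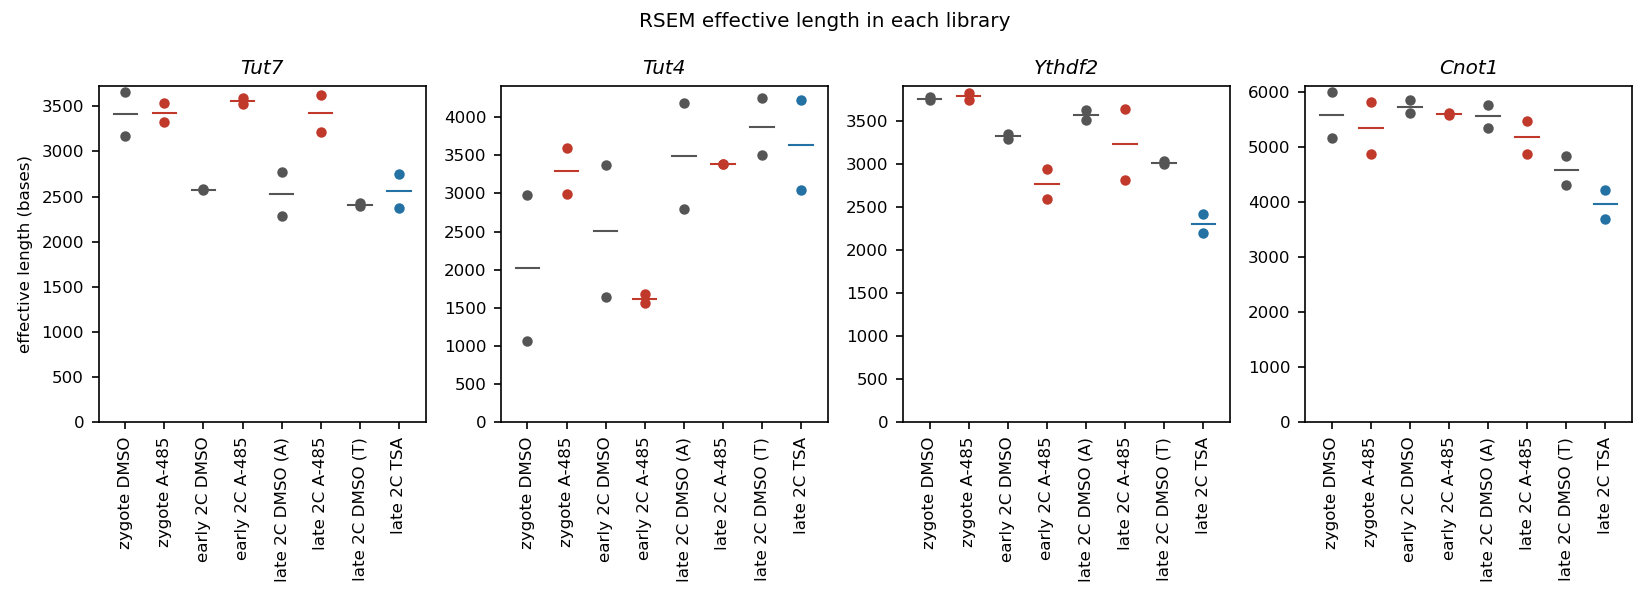
Effective length in bases that RSEM gave Tut7, Tut4, Ythdf2 and Cnot1 in each of the 16 libraries (points) with group means (bars), coloured and named as in the plot of levels. Tut7 stood at 3214 to 3630 bases in the 4 A-485 libraries of 2-cell embryos and at 2287 to 2773 in the 6 DMSO libraries of those stages.

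Read by comparison, the question of CBP/p300 inhibition gave different answers at the 3 stages. In zygotes none of the 10 members passed in edgeR, where 0.011% of 18258 genes rose and 0.0876% fell. At an unadjusted p under 0.05 the count was 1 (Dcp1a, log2 fold change 0.18), and DESeq2 called none. At early 2-cell 3 members fell (Tut4, Ythdf2 and Cnot1), where 10.2% of 20872 genes fell, and none rose, where 1.77% rose. Btg4 passed there as a rise only in the alternatives given with its values. At late 2-cell 4 members fell (Ythdf2, Cnot1, Zfp36l2 and Tut7) and 1 rose (Cnot6l), where 20.4% of 22822 genes fell and 17.0% rose. The members' median log2 fold change was 0.05 at early and -0.09 at late 2-cell, beside 0.00 and 0.28 over all genes tested. Over genes at 1 FPKM or more these medians were -0.01 and 0.02. The study's rule asks in addition for a 2-fold difference and for 1 FPKM or more on average in either group. By it none of the 10 was up- or down-regulated in zygotes, where 0.00548% and 0.0657% of genes were, and 1 member was down-regulated at early 2-cell (Tut4), where 7.90% of genes were, and 3 at late 2-cell (Ythdf2, Cnot1 and Zfp36l2), where 16.8% were. No member was up-regulated by that rule, where 0.402% and 10.5% of genes were.

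TSA, the inhibitor of the opposing enzymes, gave 4 falls (Ythdf2, Cnot1, Tut4 and Tut7) and 2 rises (Zfp36l2 and Btg4), where 21.4% of 23429 genes fell and 21.7% rose. The median over the members was -0.21, beside 0.13 over all genes tested and -0.03 over genes at 1 FPKM or more. By the study's rule 3 members were down-regulated (Ythdf2, Cnot1 and Tut4) and 1 was up-regulated (Zfp36l2), where 13.9% and 13.8% of genes were. Ythdf2, Cnot1 and Tut7 thus fell with both inhibitors, each set against its own controls. The share of all genes that fell with both was not counted. The late minus early A-485 effect passed for 6 members, with positive values for Tut4 and Cnot6l, where 10.1% of 25141 genes were positive, and negative values for Cnot1, Ythdf2, Zfp36l2 and Tut7, where 9.90% were negative. The A-485 effect minus the TSA effect was positive for 3 (Tut4, Ythdf2 and Cnot6l), where 4.59% of 26554 genes were, and negative for 1 (Zfp36l2), where 12.7% were. For Tut7 and Dcp1a the 95% intervals of that difference were -0.43 to 0.37 and -0.48 to 0.43.

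**Figure D3:**
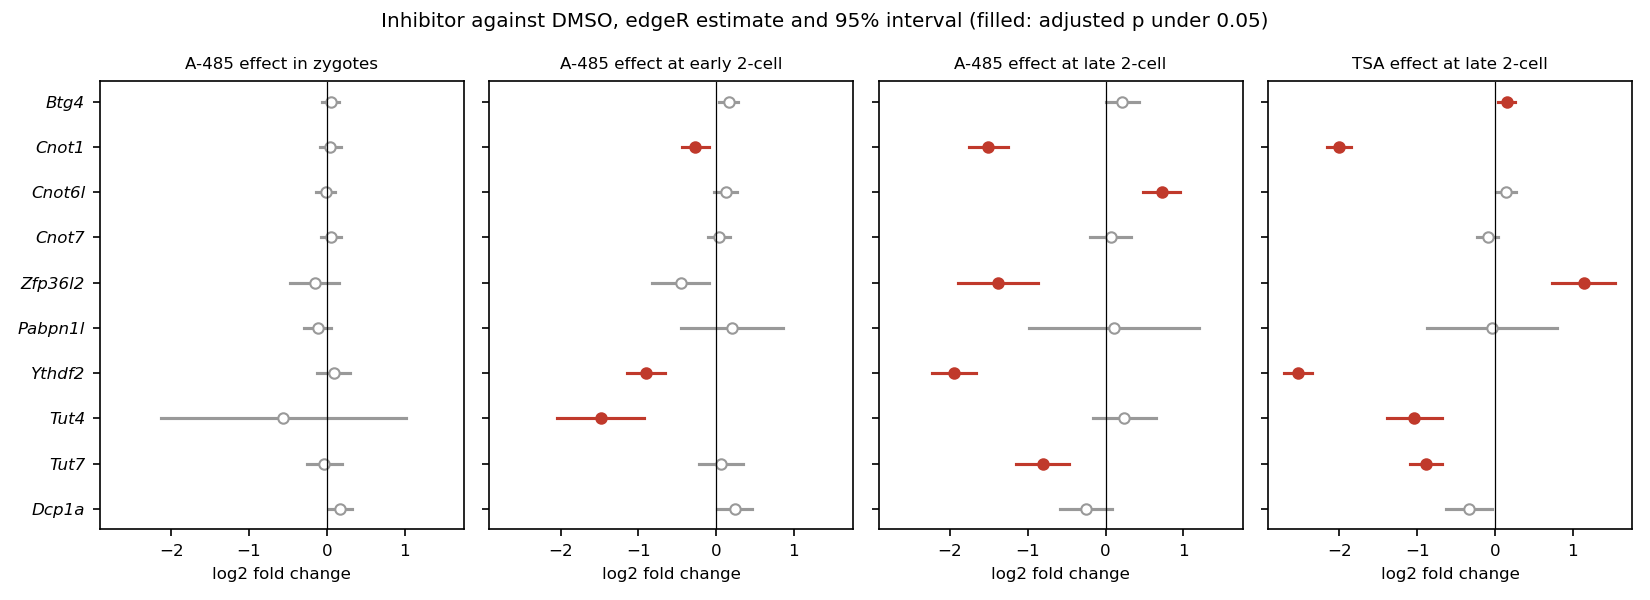
log2 fold change of each member in the inhibitor group against its DMSO group (points) from edgeR in 4 comparisons of 2 against 2 libraries. Lines are 95% intervals derived from its F statistic. Filled red points have an adjusted p under 0.05. None of the 10 is filled in zygotes, 3 at early 2-cell, 5 at late 2-cell after A-485 and 6 after TSA. The Cnot6l rise after A-485 is lost with scaling to mitochondrial genes. The Btg4 rise after TSA is lost with scaling to the protein-coding ones among them.

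In the DMSO controls all 10 members changed between zygote and early 2-cell, 6 upwards and 4 downwards, where 22.7% of 20106 genes rose and 23.4% fell. Of the 6 rises, 5 (Btg4, Cnot6l, Cnot7, Zfp36l2 and Ythdf2, but not Tut4) turned to falls with either mitochondrial scaling. By the study's rule 1 was up-regulated (Tut4), where 11.2% of genes were, and 2 were down-regulated (Pabpn1l and Dcp1a), where 14.9% were. From early to late 2-cell 4 rose (Cnot1, Ythdf2, Tut4 and Tut7) and 4 fell (Btg4, Cnot6l, Cnot7 and Dcp1a), where 20.6% of 20326 genes rose and 15.6% fell, and these 8 kept their directions with both mitochondrial scalings. All 4 rises met the study's rule, where 15.9% of genes did, and so did the falls other than that of Dcp1a, 3 in all, where 8.92% did. Zfp36l2 had a log2 fold change of 0.32 there, and -0.24 with the controls of the TSA experiment. From zygote to late 2-cell 5 rose and 5 fell, where 28.4% of 20253 genes rose and 26.5% fell, with Cnot1, Zfp36l2 and Tut7 turning negative under the mitochondrial scalings. Here 2 were up-regulated by the study's rule (Tut4 and Ythdf2), where 19.7% of genes were, and 4 were down-regulated (Pabpn1l, Dcp1a, Cnot6l and Btg4), where 19.7% were. None of the 10 differed between the DMSO groups of late 2-cell embryos in edgeR (2 at an unadjusted p under 0.05, none in DESeq2), where 1.68% of 20647 genes were higher in the TSA experiment and 0.688% lower, or 1.19% and 0.136% by the study's rule. Without DMSO replicate 2 of the A-485 experiment these differences were larger in size for Btg4 (-0.22), Cnot7 (-0.39) and Tut7 (-0.38). So was that of Zfp36l2, given with its levels above.

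The stage change and the inhibitor effect were then set side by side using controls of different experiments. With the TSA controls as the late 2-cell end, the members that rose from zygotes were Tut4 (5.38), Ythdf2 (2.05), Cnot1 (1.04) and Tut7 (0.50). After A-485 the latter 3 fell, and Tut4 did not pass. The members that fell from zygotes were Pabpn1l (-4.76), Dcp1a (-2.04), Cnot6l (-1.27), Btg4 (-1.14) and Cnot7 (-0.95). Of these Cnot6l rose after A-485, and the other 4 had log2 fold changes between -0.25 and 0.22. Over all genes tested, 20.4% fell and 17.0% rose after A-485 at late 2-cell. These shares were not counted separately among all genes that rose or fell from zygotes, so the members have no like background here.

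**Figure D4:**
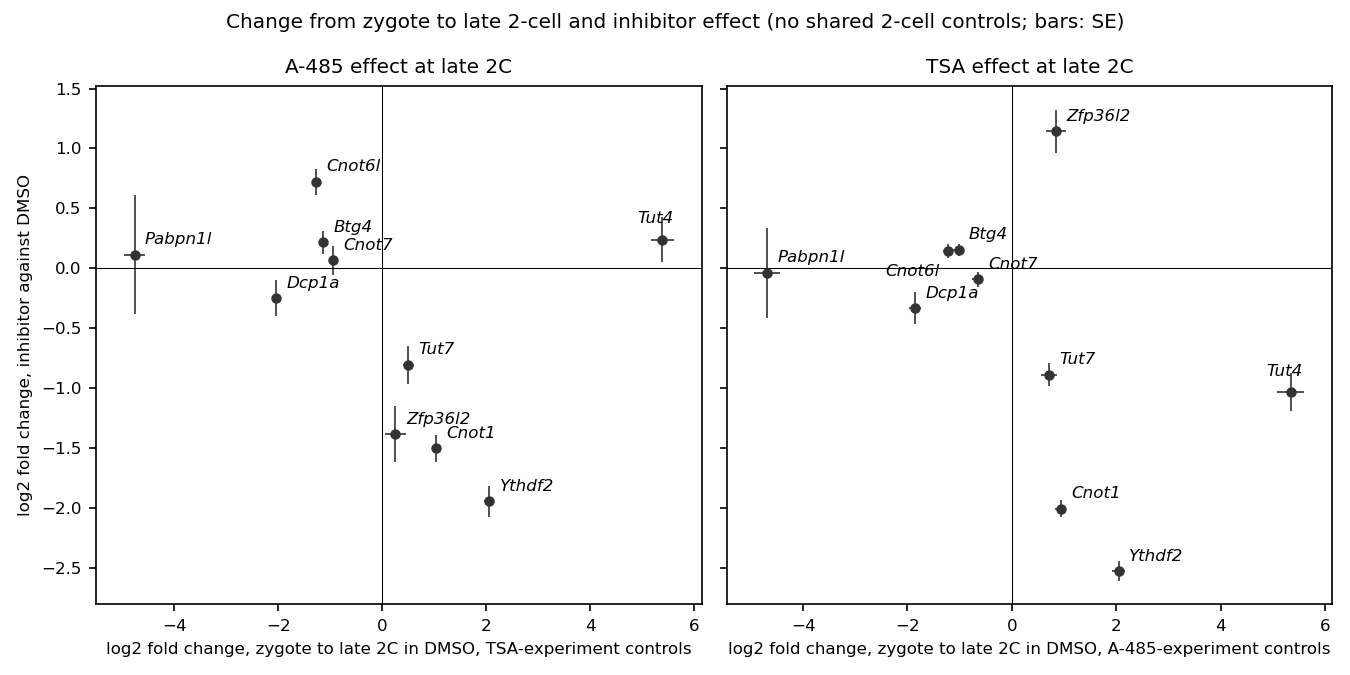
For each member, log2 fold change from DMSO zygotes to DMSO late 2-cell embryos (x axis) against the log2 fold change of A-485 (left) or TSA (right) at late 2-cell (y axis), with SE as bars; the late 2-cell controls on the x axis are those of the other experiment. Ythdf2 and Cnot1 lie lowest in both panels, at -1.95 and -1.51 on the left and -2.53 and -2.01 on the right, and Cnot1, Zfp36l2 and Tut7 move left of 0 on the x axis of the right panel when scaled to mitochondrial genes.

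The nearest relatives of the members were measured in the same libraries. Cnot8, the paralogue of Cnot7, averaged 103 FPKM in DMSO zygotes and 199 at late 2-cell, and fell by 1.37 on the log2 scale after A-485 and by 1.16 after TSA, while Cnot7 passed in neither. Cnot6, the paralogue of Cnot6l, averaged 21.8 FPKM in zygotes and 33.8 at late 2-cell, did not pass after A-485 (0.19) and fell by 0.26 on the log2 scale after TSA. Pabpn1, the nuclear poly(A)-binding protein, averaged 297 FPKM in zygotes and 639 at late 2-cell and fell after A-485 (-1.62) and TSA (-1.13). Ythdf1 fell after both (-0.66 and -0.86), and Ythdf3, at 79.0 FPKM in zygotes and 79.4 at late 2-cell, did not pass in either (0.00 and -0.08). Zfp36l1 stood at 0.17 and 0.64 FPKM in late 2-cell controls and 6.09 and 7.29 after A-485, a rise of 4.10 on the log2 scale (SE 0.51), and rose by 2.33 after TSA. Dcp1b had group means of at most 0.565 FPKM.

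The wider pathway was described with 90 other genes in 10 lists tied to mRNA decay. Not all promote decay, since the lists also hold m6A erasers, m6A readers of the Igf2bp family and poly(A)-binding proteins. For A-485 at late 2-cell 89 of the 90 were tested, and for TSA all 90. At late 2-cell 41 fell and 8 rose after A-485, where 20.4% and 17.0% of all genes tested did. Their median log2 fold change was -0.53, beside 0.28 over all genes tested and 0.02 over genes at 1 FPKM or more. By the study's rule 28 were down-regulated and 2 up-regulated after A-485, where 16.8% and 10.5% of genes were. With the mitochondrial scalings these became 46 and 1, and 57 and 1, while the median log2 fold change of all genes at 1 FPKM or more moved from 0.02 to -0.62 and -0.96. After TSA 51 fell and 5 rose, where 21.4% and 21.7% of genes did. Their median was -0.43, beside 0.13 over all genes tested and -0.03 over genes at 1 FPKM or more. At early 2-cell 17 of 89 fell and none rose after A-485, where 10.2% and 1.77% of genes did. In zygotes none of 88 passed in edgeR (2 at an unadjusted p under 0.05, 1 in DESeq2), where 0.0876% fell and 0.011% rose. Counting members with their lists, 7 of 15 genes of the exosome and Ski complex fell after A-485 at late 2-cell and 10 of 15 after TSA. Of writers and erasers of m6A, 7 of 10 fell after A-485 and 8 of 10 after TSA. Decapping and 5′ decay had 5 of 19 falls after A-485 and 9 of 20 after TSA, and deadenylase adaptors 3 of 6 and 1 of 6. Over all genes the shares were the same 20.4% and 21.4%. Those genes include ones below 1 FPKM: for A-485, 16062 of 22822 were at 1 FPKM or more. The exosome nuclease Exosc10 fell after both inhibitors, with log2 fold changes of -3.24 for A-485 and -1.85 for TSA. Dis3l, a cytoplasmic relative of the exosome nuclease Dis3, fell likewise, with -2.89 for A-485 and -2.703 for TSA. Pabpc1, the main cytoplasmic poly(A)-binding protein, averaged 5.63 FPKM in DMSO zygotes, 45.5 at early 2-cell and 266 at late 2-cell, and fell after A-485, with log2 fold changes of -3.24 at early and -3.57 at late 2-cell. Pnldc1, a poly(A)-specific ribonuclease, fell by 3.67 after A-485 at late 2-cell.

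Rises were fewer. Besides Zfp36l1, Lsm3 (1.28), of the LSM ring that promotes decapping, rose after A-485 at late 2-cell. After TSA the genes that rose included Btg2, an adaptor of the family of Btg4 (2.99, from 4.93 to 50.1 FPKM), Zfp36l1 (2.33), Wdr61 (2.01) of the Ski complex and Lsm1 (0.80). Exosc6 (-3.23) of the exosome and Lsm2 (-2.37) of an LSM ring fell after TSA. In early 2-cell embryos A-485 lowered Pabpc1, the m6A reader Igf2bp1 (-3.10) and the adaptor Tob1 (-2.53), and in DMSO these 3 rose from zygote to early 2-cell, with log2 fold changes of 3.17, 3.93 and 1.92. Mettl14 (-3.09), a subunit of the m6A writer, Patl2 (-2.94), an oocyte decapping factor, and Exosc9 (-2.56) fell in that interval.

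**Figure D5:**
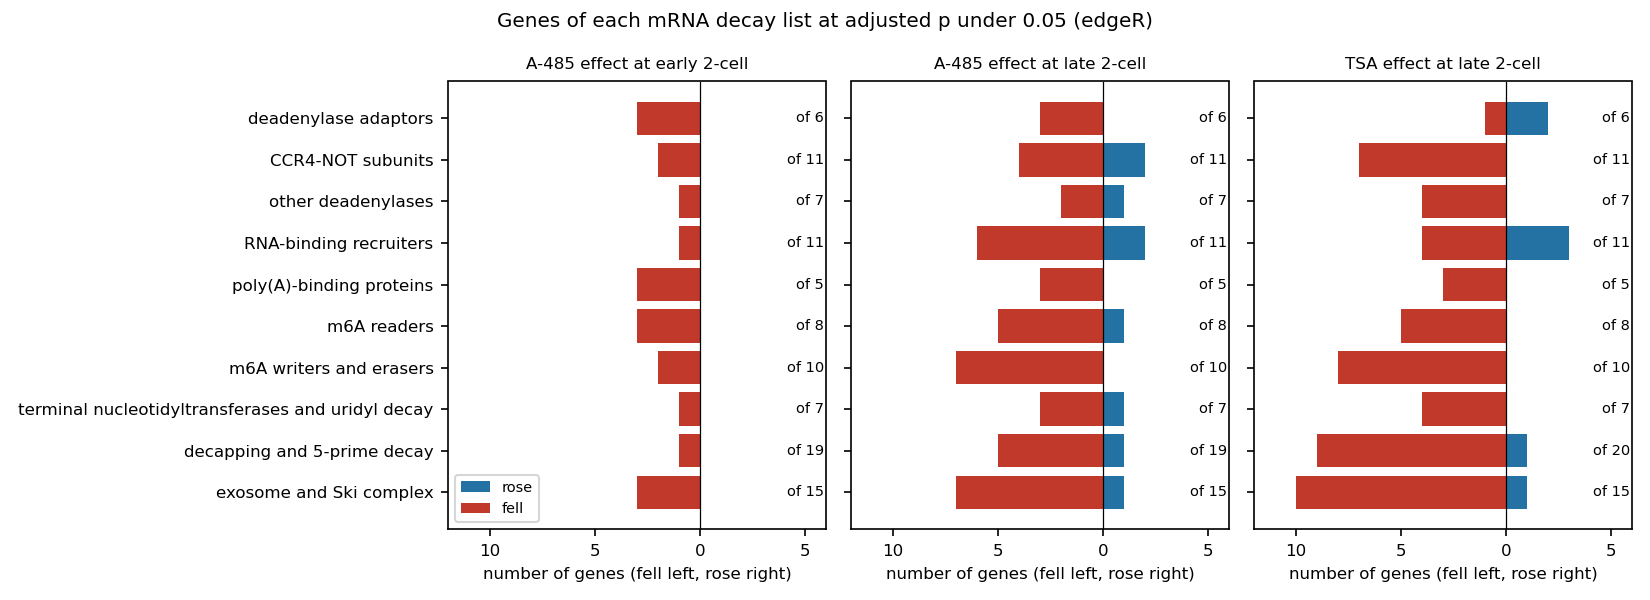
Number of genes of each mRNA decay list that fell (red, left) or rose (blue, right) at an adjusted p under 0.05 in edgeR, with the number tested at the right edge, for A-485 at early and late 2-cell and TSA at late 2-cell. The exosome list has 3, 7 and 10 falls in the 3 comparisons, and no list has a rise at early 2-cell.

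Profiles over the 16 libraries were compared on the log2 scale of FPKM with 0.1 added, among 12159 genes with a group mean of at least 5 FPKM. Libraries of a stage share that stage, so the correlations are a description. Cnot6l and Pla2g4c (Pearson r = 0.994), Dcp1a and Afap1l2 (0.992), Pabpn1l and Padi6 (0.991), Btg4 and Zbed3 (0.990), and Ythdf2 and Ep300 (0.989) were most alike. Ep300 encodes p300, a target of A-485, and Padi6 a maternal-effect protein of the oocyte. For the other members the closest genes were Ggct for Cnot7 (0.980), Bclaf1 for Cnot1 (0.976), Gm43029 for Tut4 (0.973), Pole for Tut7 (0.966) and Jup for Zfp36l2 (0.948). Among the members, Btg4 went with Cnot7 (0.966) and Cnot6l (0.963), Dcp1a with Pabpn1l (0.953) and Cnot1 with Tut7 (0.896), and Zfp36l2 had no partner above 0.307.

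Open chromatin at the members' start sites was read from lists of ATAC-seq peaks, for DMSO and A-485 embryos at late 1-cell and at early 2-cell, 1 list each, each called by the authors over 2 replicates. A peak within 1 kb of an annotated start site counted. At late 1-cell 3 members had one in DMSO (Cnot1, Ythdf2 and Dcp1a), where 36.7% of 14885 expressed protein-coding genes did, and 4 had one in A-485 (with Zfp36l2), where 34.9% did. At early 2-cell 3 had one in DMSO (Cnot1, Ythdf2 and Tut7), where 45.0% of genes did, and 6 in A-485 (Cnot1, Ythdf2, Tut7, Tut4, Cnot7 and Dcp1a), where 57.1% did. The lists hold 10214, 7094, 27693 and 13712 peaks in that order. Cnot1 and Ythdf2 had a peak in all 4 lists, and Tut7 only in the 2 early 2-cell ones. The peak over the Ythdf2 start lay at chr4:132211768-132212452 with 6.37-fold enrichment in DMSO and at chr4:132211597-132212393 with 8.70-fold in A-485 early 2-cell embryos, and both overlap the stretch of sequence shown above. At the Tut7 start, chr13:59822710-59823684 was 9.68-fold enriched in DMSO and chr13:59822969-59823631 was 9.11-fold in A-485. Btg4, Cnot6l and Pabpn1l had no peak within 1 kb in any list, and the nearest to a Btg4 start was 1405 bases away in A-485 early 2-cell embryos. Each peak has 1 value that comes from both replicates together, so the difference between treatments has no replicate check.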

How the data were processed

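Libraries of total RNA and of open chromatin (ATAC-seq) from mouse embryos were used, and H3K27ac CUT&RUN samples were not used here. The authors trimmed RNA reads (Trimmomatic 0.39), mapped them to GRCm38 (STAR 2.7.8a) and ran RSEM 1.3.1. The deposited values per gene are RSEM's expected count, left unscaled, its FPKM, which divides by effective length and by sequencing depth, the effective length, and the posterior standard deviation of the count. The kit marks strand, and how strand entered counting is not given in the sources used here. The posterior SD was at most 0.382% of the count for the members. Vps37a overlaps Cnot7 on the opposite strand with up to 2961 counts. For ATAC-seq the authors ran the ENCODE pipeline and kept the peaks that its reproducibility test found in the pair of replicates. Each deposited peak carries a score, a fold enrichment ratio and a -log10 q, none of which served as a test here. No build is stated for the peaks; they were read as GRCm38.

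Expected counts were rounded. Genes with at least 10 counts over a comparison were tested with edgeR 4.0.16 (R 4.3.3), TMM factors and Benjamini-Hochberg adjustment, in fits of the 4 libraries compared, or 8 for differences between effects. Scripts were tested on simulated data. Of 55385 genes 55144 matched a symbol. Between the 2 libraries of a group, squared differences in counts were 9.44 to 19.6 times those of counting noise alone (chi-square per degree of freedom). No library was thus a copy.

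The members and the lists were chosen with earlier results of these data known. Genes named besides members were, per comparison, at most the 3 rises and 3 falls with the largest log2 fold change among pathway genes with an adjusted p under 0.05 and a mean of at least 5 FPKM in either group, the gene most alike to each member, and close paralogues. Alternatives were DESeq2 1.42.0, other scalings, no count filter, all 16 libraries in a fit, a replicate block, leaving out each library, no fold or FPKM cutoff, other late 2-cell controls and, chosen after seeing the data, mitochondrial protein-coding genes as the scale and effective lengths as an offset. Where a library was left out, the remaining library of its group was assumed to vary like the other groups.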

Additional observations from a re-analysis of the deposited data

Results flagged for a closer look

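Differences between effects that passed edgeR's interaction test are listed here with the effects they join. The A-485 effect at late minus that at early 2-cell was -1.16 for Cnot1 (adjusted p = 9.92e-07), -0.97 for Ythdf2, -0.79 for Tut7, -0.85 for Zfp36l2 and 0.68 for Cnot6l. Tut4 differed by 1.81, with a fall at early 2-cell and no call at late 2-cell. Between the inhibitors at late 2-cell, the A-485 effect minus the TSA effect was 1.17 for Tut4, 0.47 for Cnot6l, 0.47 for Ythdf2 and -2.64 for Zfp36l2, whose effects had opposite signs. For Zfp36l2 the direction was the same in every library: 2 of 2 A-485 libraries lay below and 2 of 2 TSA libraries above all 4 controls. Groups of 2 libraries were not screened for outlying samples.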

How the results depend on the processing

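Log2 fold changes are given first with scaling to mitochondrially encoded genes and then to the protein-coding ones among them, and the cause of each change was not tested. Between zygote and early 2-cell Btg4 turned to -0.68 and -0.74, Cnot6l to -0.97 and -1.03, Cnot7 to -0.76 and -0.82, Zfp36l2 to -0.70 and -0.76 and Ythdf2 to -0.48 and -0.54. Between zygote and late 2-cell Cnot1 turned to -0.38 and -0.38, Zfp36l2 to -0.47 and -0.46 and Tut7 to -0.62 and -0.61. For A-485 at late 2-cell Btg4 turned to -0.40 and -0.76, Cnot7 to -0.56 and -0.91 and Tut4 to -0.40 and -0.74. For the A-485 minus the TSA effect Cnot1 turned to -0.10 and -0.29, Cnot6l to -0.027 and -0.21 and Ythdf2 to -0.023 and -0.21. With the protein-coding genes alone, Cnot6l turned to -0.25 for A-485 at late 2-cell, -0.35 for late minus early A-485 and -0.035 for TSA, and Btg4 to -0.025 for TSA. Tut7 for A-485 at early 2-cell turned to -0.021 with the mitochondrial genes and -0.39 with effective lengths, and Cnot7 for A-485 at late 2-cell to -0.10 with effective lengths. With total counts Dcp1a for TSA turned to 0.025 and Cnot7 for TSA to 0.26, and Cnot7 for TSA to 0.038 with all 16 libraries, and Zfp36l2 from early to late 2-cell to -0.24 with the TSA controls. Leaving out 1 library gave -0.019 to 0.14 for Tut7 at early and -0.054 to 0.22 for Cnot7 at late 2-cell after A-485, and -0.22 to 0.015 for Btg4 between the DMSO groups of late 2-cell.

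Counts of members by the study's rule moved with the mitochondrial scalings for zygote to early 2-cell down (4 and 5), zygote to late 2-cell up (1 and 1), A-485 late down (5, protein-coding genes) and TSA up (0, protein-coding genes). For late minus early A-485 they gave 1 and 0 positive and 7 and 7 negative members, and for A-485 minus TSA 0 and 0 positive and 2 and 5 negative. Effective lengths gave 0 members down for A-485 at early 2-cell and 1 positive for A-485 minus TSA. Without the fold cutoff 3 were down for A-485 at early 2-cell, 1 up at late 2-cell, 2 up for TSA, 6 up and 4 down from zygote to early 2-cell and 5 up from zygote to late 2-cell. Leaving out 1 library gave 1 to 2 down for A-485 at early 2-cell, 0 to 1 up for TSA, 2 to 4 up from zygote to late 2-cell, 1 to 2 positive for late minus early A-485 and 1 to 4 positive for A-485 minus TSA. In the stronger 50% of each peak list, 2 members had a late 1-cell peak in A-485 and 1 in DMSO.

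The labels do not say whether libraries with the same replicate number were paired. Deviations of same-numbered libraries correlated at -0.05 to 0.10, with the highest value for TSA. With 2 libraries a group, such values cannot exclude pairing. With the replicate block 3 members were down after A-485 and 3 after TSA at late 2-cell, by the study's rule, as without it, and 4 were positive for A-485 minus TSA. Without that rule the block added calls for Btg4 after A-485 at early 2-cell (0.16), Dcp1a (-0.35) and Cnot6l (0.14) after TSA, Zfp36l2 between the DMSO groups (-0.60) and Cnot1 for A-485 minus TSA (0.40). Low counts limit Pabpn1l in 2-cell embryos and Tut4 in zygotes.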
